A study of Mus musculus with 12 samples.

Results

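Doxorubicin (DOX) was compared with vehicle across hearts of both PDE10A genotypes, with genotype as an additive term, so that each gene had 1 DOX effect shared by wild-type (WT) hearts and hearts labelled PDE10A knockout (KO). All 12 libraries of the series entered this comparison, 6 from DOX hearts and 6 from vehicle hearts, and the results concern the genes that moved the same way in both genotypes. Messenger RNA was sequenced from C57BL/6J mouse hearts, 3 mice in each of 4 groups: WT DOX (mice 21, 22 and 24), WT vehicle (mice 1, 2 and 3), KO DOX (mice 18, 19 and 20) and KO vehicle (mice veh_3393, veh_3394 and veh_3395). DOX mice had received 1 bolus of 15 mg/kg and were followed for 7 days per the labels' protocols. The protocols also describe TP-10, a PDE10A inhibitor, but no library is labelled with it, and no group is labelled with a Cre driver, a transgene or an age. Of 14757 genes tested, 35 were called for DOX at an adjusted p under 0.05 (edgeR's quasi-likelihood test), which is 0.237% of them.

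DOX is an anthracycline that intercalates into DNA, traps topoisomerase 2 on broken DNA and takes part in redox and iron chemistry. The heart is the organ that limits its use, since cardiomyocytes hardly divide and depend on mitochondria. PDE10A is a phosphodiesterase that hydrolyses the second messengers cAMP and cGMP. Known transcript responses of an injured heart include a return of fetal contractile genes, DNA damage genes under p53, and shifts in matrix, immune and metabolic genes.

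Library totals ran from 23846398 to 32921876 counts, and the mitochondrial genome supplied from 19.5% (WT vehicle 2) to 33.6% of them. WT vehicle 2 stood apart from its group, with a chi-square per gene of 164 and 98.4 against WT vehicle 1 and 3, beside 18.5 between those 2. WT DOX 21 was at 73.9 and 76.1 from WT DOX 22 and 24. Its values were 24.8, 161 and 32.1 from WT vehicle 1, 2 and 3. KO DOX 18 was at 34.3 and 21.7 from KO DOX 19 and 20. From KO vehicle veh_3393, veh_3394 and veh_3395 it was at 31.9, 14.3 and 30.1. Transcripts that define cardiomyocytes were high in every library: Myh6, the fast myosin heavy chain of the adult mouse ventricle, lay between 18500 and 24100 CPM (counts scaled to the library total after normalisation). The other heart muscle markers varied more. Tnnt2 lay between 6880 (KO vehicle veh_3394) and 11700 CPM (WT vehicle 2), and Tnni3 between 3050 (WT DOX 22) and 8950 CPM (WT vehicle 2). Actn2 lay between 1700 (KO DOX 18) and 2590 CPM (WT DOX 24), and Myl2 between 6730 (WT DOX 22) and 15800 CPM (WT vehicle 2). Tnni3 had a log2 fold change for DOX of -0.50 (SE 0.17, adjusted p = 0.119). Every library held Ddx3y at 25.8 CPM or more and Xist at 0.252 CPM or less, so 1 sex was present although the protocols name both. The targeted gene went against the KO label at the level of the whole transcript. Pde10a stood at 8.27, 8.49 and 9.09 CPM in KO DOX and 9.31, 11.9 and 9.13 CPM in KO vehicle, against 2.7, 2.08 and 1.79 CPM in WT DOX and 3.38, 1 and 1.86 CPM in WT vehicle. Counts per gene do not show exons, so which part was deleted could not be checked, and KO below means the hearts labelled so. Within the comparison, Pde10a had a log2 fold change for DOX of -0.09 (SE 0.22, adjusted p = 0.817). Atrial transcripts summed to 2630 CPM in KO DOX 18 and 3320 CPM in KO vehicle veh_3394, against 652 to 1710 CPM in the other 10 libraries. The titles of 8 libraries carry an added 1 whose meaning is not given. WT DOX 21, WT vehicle 2 and 3 and KO vehicle veh_3393 lack it, and all other libraries carry it. The 1 is thus unevenly spread over the treatments, and its part cannot be fully told apart from the DOX effect. With it as a term edgeR called no gene, and 2104 genes had an unadjusted p under 0.05, against 3699 without it. Myh7 then had a log2 of 4.28 and an adjusted p of 0.0514. KO vehicle mice carry numbers far from those of the other mice, so any difference in their origin cannot be told apart from the DOX effect in KO.

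Of the 35 called genes, 21 were higher in DOX hearts (0.142% of genes tested) and 14 were lower (0.0949%), a split of 22 and 4 without TMM scaling. Their log2 fold changes were between 0.351 and 6.28 in size, against a median size of 0.177 over all genes tested. All 35 had the same sign in WT and in KO, and in 34 of them the 3 DOX libraries lay clear of the 3 vehicle libraries within each genotype, a separation that 812 genes (5.5%) showed in the same direction, 451 higher (3.06%) and 361 lower (2.45%), and 188 (1.27%) in opposite directions. In 29 the 6 DOX libraries also lay clear of the 6 vehicle libraries whatever the genotype. This wider separation was not counted over all genes tested, so the 29, and the same trait given for single genes below, have no share beside them. The calls sat close to the threshold: adjusted p-values ran from 0.0182 to 0.0496, and the next 15 genes, Top2a and Ccr2 among them, shared a value of 0.0524. No called gene kept its call in all 12 fits that left out 1 library each. None was called without WT vehicle 1 or 2 or KO vehicle veh_3393 or veh_3395, 1 was called without WT vehicle 3, and the other fits called between 3 (without WT DOX 24, KO DOX 20 or KO vehicle veh_3394) and 51 (without WT DOX 21), with 8 without WT DOX 22, 9 without KO DOX 19 and 17 without KO DOX 18. All 35 kept their direction in those 12 fits and under the 10 other settings tried. The signs, the separation and these refits draw on the same libraries that made the calls, so they are not independent evidence.

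**Figure D1:**
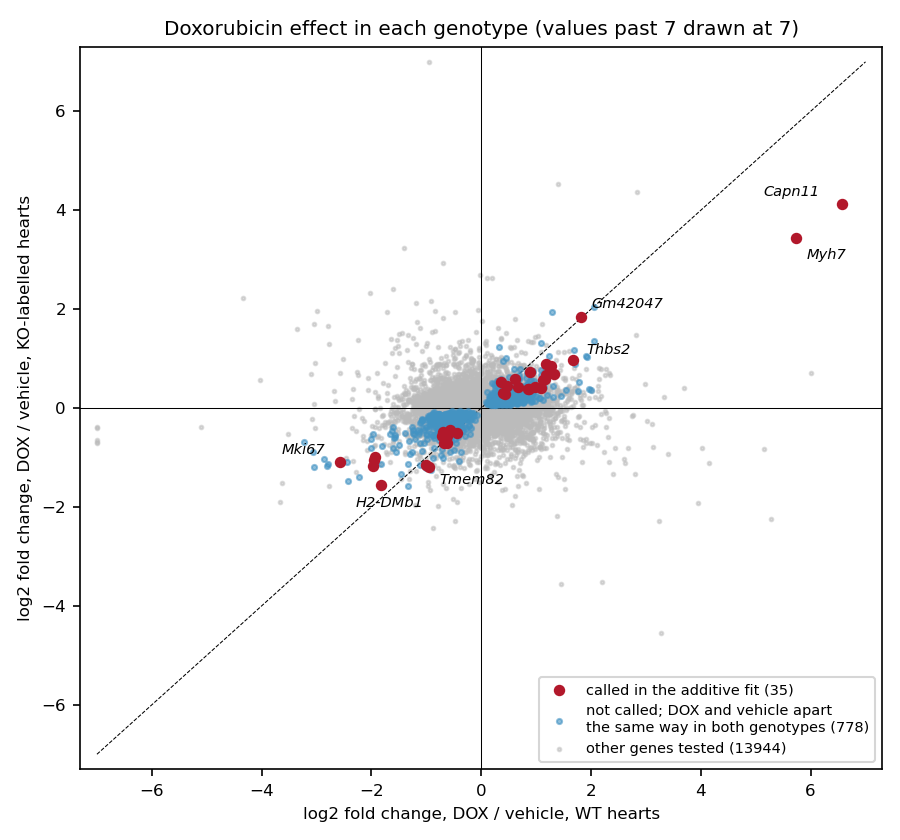
Log2 fold change of DOX over vehicle in WT hearts (x axis) and in KO-labelled hearts (y axis) for the 14757 genes tested, with the dashed line marking equal effects. The 35 called genes (red) lie in the quadrants of equal sign, and 28 of them have the larger effect in WT; blue marks 778 further genes whose DOX and vehicle libraries were apart the same way in both genotypes.

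The largest response among called genes with counts in every library was in the contractile apparatus. Myh7 encodes the slow, beta isoform of cardiac myosin heavy chain, which prevails in the fetal mouse ventricle and is scarce in the adult one (chromosome 14, 54970684 to 54994626 in GENCODE M21 on GRCm38, as for the other positions below). It stood at 2530, 5060 and 8070 CPM in WT DOX and at 761, 2710 and 1330 CPM in KO DOX, against 140, 70.5 and 84.4 CPM in WT vehicle and 129, 240 and 74.7 CPM in KO vehicle. Every DOX heart was above every vehicle heart, and Myh7 rose by a log2 of 4.58 (SE 0.57, adjusted p = 0.0182), a 24-fold change. The effect was 5.73 in WT and 3.44 in KO on the log2 scale, and the test of that difference gave an adjusted p of 0.214. Leaving out 1 library moved the shared value between 4.28 and 4.93, and the call held in 7 of 12 such fits.

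No other gene of the fetal and stress list passed the threshold in the additive fit. Myh6, which lies beside Myh7 on chromosome 14, had a log2 fold change of -0.15 (SE 0.08, adjusted p = 0.26). Nppb, the B-type natriuretic peptide gene, stood at 83.8 to 198 CPM in DOX hearts and 40.8 to 157 CPM in vehicle hearts (log2 0.98, SE 0.30, adjusted p = 0.104). Ankrd1, a stretch-responsive muscle ankyrin repeat gene, had a log2 of 0.92 (SE 0.31, adjusted p = 0.114), and Acta1, skeletal actin, a log2 of -1.45 (SE 0.47, adjusted p = 0.11). Nppa, the atrial natriuretic peptide gene, was at 498 CPM in KO DOX 18 and 877 CPM in KO vehicle veh_3394, the libraries with the highest atrial sums, and at 29.6 to 253 CPM elsewhere (log2 0.56, SE 0.60, adjusted p = 0.571). Of 19 stress and fetal genes tested, 1 was called and 9 had positive and 4 negative effects in both genotypes. The median log2 of the list was 0.19, beside 0.003 for all genes. In a fit with 1 mean per group, the DOX effects in WT and KO were estimated apart and their average was tested, and 763 of 14757 genes (5.17%) were called, 380 higher (2.58%) and 383 lower (2.6%). There Xirp1, which encodes an actin-binding protein of intercalated discs, was also called (log2 0.74, SE 0.19, adjusted p = 0.0449), against an adjusted p of 0.0953 in the additive fit. The list thus had 2 genes called higher and 0 lower in that fit. These counts were 6 and 2 without WT DOX 21 and 4 and 2 without WT vehicle 1. They were 2 and 0 without KO DOX 18, and 1 and 0 without any other library. Mhrt, a noncoding RNA read from the opposite strand of the Myh7 locus, had a log2 of -0.88 (SE 0.22, adjusted p = 0.0945). The library kit marks strand, but the strand setting of the counting is not given in the sources used here, so reads of genes that overlap cannot be told apart.

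The promoter of Myh7 is shown because this gene carried the largest effect among well-covered genes. It covers the 250 bases before the RefSeq start (GRCm38.p6, chr14:54994627-54994876, minus strand), and capitals mark an MCAT element (CATTCC, here on the reverse strand as GGAATG), which TEAD factors bind in muscle genes, and a CCAAT box.
Myh7: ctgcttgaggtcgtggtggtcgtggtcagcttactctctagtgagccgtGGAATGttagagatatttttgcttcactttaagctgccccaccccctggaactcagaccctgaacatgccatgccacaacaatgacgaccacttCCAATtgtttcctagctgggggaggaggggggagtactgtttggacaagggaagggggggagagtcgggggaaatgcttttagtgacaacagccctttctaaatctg
The MCAT letters begin 201 bases and the CCAAT letters 107 bases before the start. Searched on both strands from 250 bases before to 50 after the start, CATTCC was found in 14.6% of 27025 RefSeq promoters and in 6 of the 30 called genes with a promoter in that table.

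Matrix and growth factor genes were called in both directions. Thbs2 encodes thrombospondin 2, a secreted glycoprotein that binds matrix proteins and restrains vessel growth (chromosome 17, 14665500 to 14694235). Its level was 34.3, 94.8 and 69.8 CPM in WT DOX and 31.5, 33.7 and 22.2 CPM in KO DOX, against 23.4, 18.1 and 20.6 CPM in WT vehicle and 14.6, 17.7 and 12.4 CPM in KO vehicle. Within each genotype DOX lay above vehicle, although KO DOX 20 was below WT vehicle 1, and Thbs2 rose by a log2 of 1.33 (SE 0.23, adjusted p = 0.0471). None of the other thrombospondin genes passed: Thbs1 had a log2 of -0.36 (adjusted p = 0.713) and Thbs4 of 0.24 (adjusted p = 0.639). Igfbp3, a carrier that sequesters insulin-like growth factors, was at 38.5 to 79.8 CPM in DOX hearts (median 56.4) and 21.3 to 34.8 CPM in vehicle hearts (median 29.5). The groups did not overlap, and Igfbp3 rose by a log2 of 1.03 (SE 0.16, adjusted p = 0.0416). The effect was 1.17 in WT and 0.89 in KO, with an adjusted p of 0.669 for the difference. Of the other binding proteins tested, Igfbp4, Igfbp5, Igfbp6 and Igfbp7 had log2 values of 0.17, -0.34, -0.67 and -0.45 and adjusted p-values of at least 0.107. These relatives, and those given for other families below, were chosen after the calls were known.

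Tgfb1, the gene of the profibrotic cytokine TGF-beta 1, was lower. It was at 16.2, 13.7 and 14.2 CPM in WT DOX and 15.2, 13.6 and 15.2 CPM in KO DOX, against 21.2, 23.5 and 20.9 CPM in WT vehicle and 20.7, 21.1 and 18.1 CPM in KO vehicle. The 2 treatments were clear of each other in all 12 libraries, and Tgfb1 fell by 0.51 on the log2 scale (SE 0.08, adjusted p = 0.0303). Tgfb2 and Tgfb3 had log2 values of 0.44 (adjusted p = 0.19) and -0.19 (adjusted p = 0.409). Over 37 extracellular matrix and remodelling genes tested, Thbs2 and Tgfb1 were the only called members, and the list's median log2 was -0.12, at -0.41 in WT and 0.03 in KO.

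**Figure D2:**
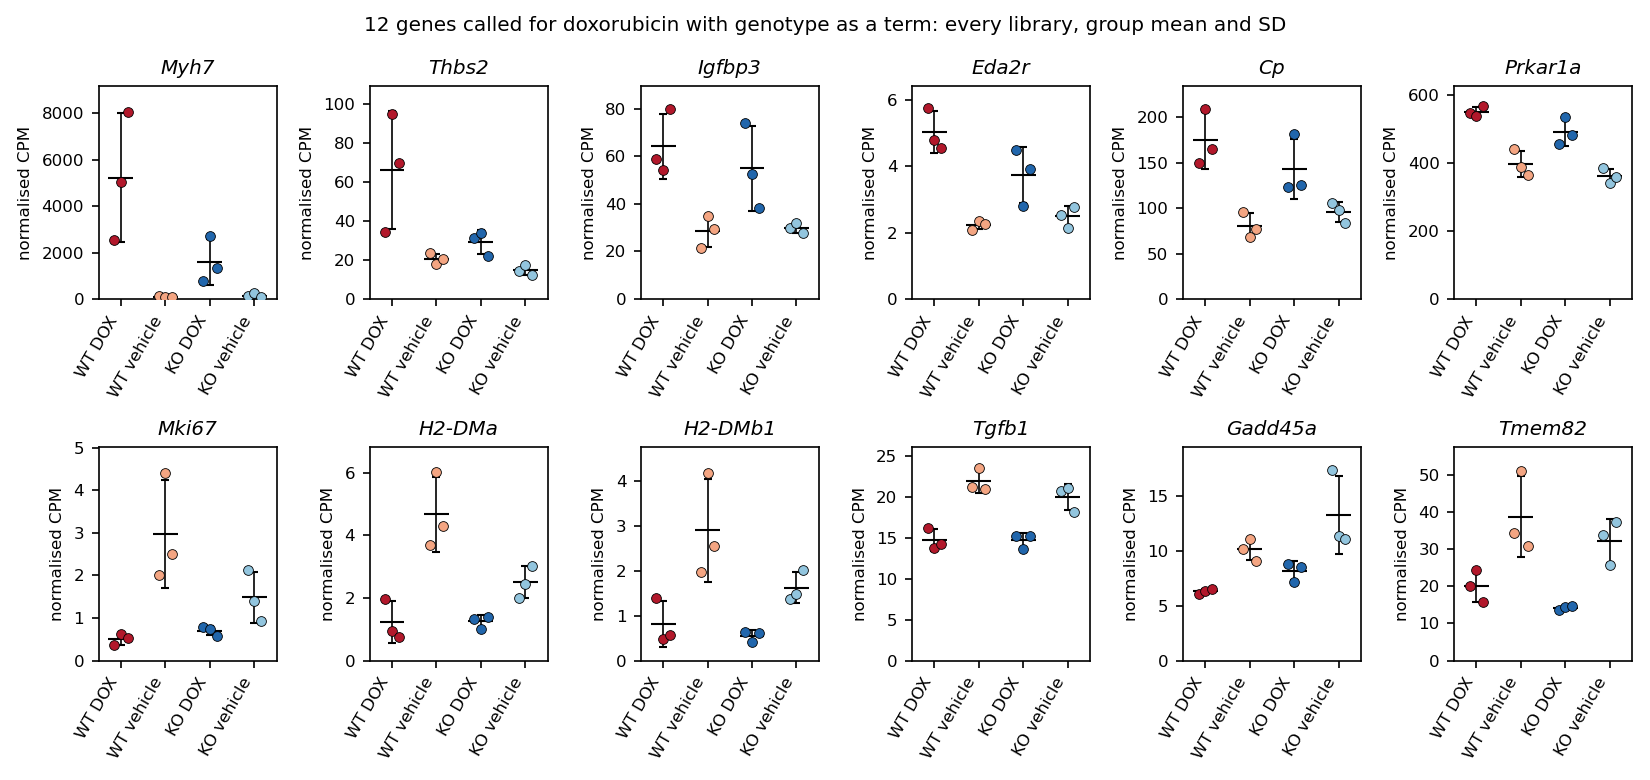
Normalised CPM (y axis, from 0) of 12 called genes in every library, grouped as WT DOX, WT vehicle, KO DOX and KO vehicle; lines give the mean and bars the SD of 3 hearts. Myh7 averages 5222 CPM in WT DOX and 1600 CPM in KO DOX beside 98.3 and 148 CPM in the vehicle groups, while Prkar1a and Gadd45a shift by similar amounts in both genotypes.

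Of 38 genes tested from the list of p53 targets, 2 were called, both higher in DOX hearts. From the list of DNA repair and damage signalling genes, 0 of 33 were called. Eda2r encodes a receptor of the TNF receptor family for ectodysplasin A2 and is a p53 target. It was at 5.75, 4.81 and 4.55 CPM in WT DOX and 4.49, 2.82 and 3.93 CPM in KO DOX, against 2.09, 2.35 and 2.26 CPM in WT vehicle and 2.55, 2.15 and 2.77 CPM in KO vehicle. The lowest DOX heart, KO DOX 19, was only just above the highest vehicle heart, and Eda2r rose by a log2 of 0.88 (SE 0.16, adjusted p = 0.0471). Sesn2, a sestrin that p53 and ATF4 induce and that restrains mTORC1, was at 4.35 to 5.68 CPM in DOX hearts and 2.85 to 3.5 CPM in vehicle hearts. Sesn2 rose by a log2 of 0.60 (SE 0.10, adjusted p = 0.0471), at 0.61 in WT and 0.59 in KO, whereas Sesn1 (0.21, adjusted p = 0.483) and Sesn3 (-0.06, adjusted p = 0.711) did not pass.

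Gadd45a, a DNA damage inducible gene, was lower in DOX hearts. It is in neither list, so the counts of these lists leave out its fall. Its level was 6.11, 6.33 and 6.54 CPM in WT DOX and 8.82, 7.21 and 8.55 CPM in KO DOX, against 10.2, 11.1 and 9.13 CPM in WT vehicle and 17.4, 11.4 and 11.1 CPM in KO vehicle. All 6 DOX hearts were below all 6 vehicle hearts, and Gadd45a fell by 0.69 on the log2 scale (SE 0.12, adjusted p = 0.0471). Cdkn1a, the p53 target that encodes the cell cycle inhibitor p21, was at 87.4, 180 and 118 CPM in WT DOX and 27.9, 31.4 and 19.8 CPM in KO DOX, against 30.5, 49.3 and 53.6 CPM in WT vehicle and 24.7, 15 and 12.2 CPM in KO vehicle. With a log2 of 1.08 (SE 0.25, adjusted p = 0.0833) it was not called, and in KO hearts its DOX and vehicle values overlapped. Among the 38 p53 targets, 21 had a positive and 6 a negative effect in both genotypes, against 4673 positive and 4426 negative among all 14757 genes. The median log2 of the list was 0.24 in the additive fit, 0.26 in WT and 0.16 in KO. In the fit with 1 mean per group 6 of the 38 were called higher and 1 lower, beside 2.58% and 2.6% of all genes. That became 11 and 1 without WT DOX 21 and 10 and 1 without WT vehicle 1, and no fit without 1 library other than WT DOX 21 or WT vehicle 1 called more than 2 of them.

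Of the cell cycle genes, 1 was called, and it was lower in DOX hearts. Mki67, which encodes the Ki-67 antigen of cycling cells (chromosome 7, 135689784 to 135716361), was at 0.359, 0.619 and 0.518 CPM in WT DOX and 0.788, 0.732 and 0.578 CPM in KO DOX, against 2, 4.42 and 2.5 CPM in WT vehicle and 2.13, 1.4 and 0.939 CPM in KO vehicle. No DOX heart reached the lowest vehicle heart, and Mki67 fell by 1.84 on the log2 scale (SE 0.34, adjusted p = 0.0471), or 3.58-fold. In whole hearts fewer cells of a type and less RNA per cell cannot be told apart, here or for the immune genes below. Top2a, the topoisomerase of dividing cells that anthracyclines trap, was at 0.359, 0.437 and 0.173 CPM in WT DOX and 0.591, 0.256 and 0.385 CPM in KO DOX, against 0.935, 2.83 and 1.35 CPM in WT vehicle and 1.56, 1.21 and 0.64 CPM in KO vehicle. Its libraries did not overlap either, but its log2 of -1.95 (SE 0.38) had an adjusted p of 0.0524. Top2b, the topoisomerase of resting cells such as cardiomyocytes, had a log2 of 0.14 (SE 0.07, adjusted p = 0.199). Of 26 cell cycle genes tested, 22 had a negative and 1 a positive effect in both genotypes, with a median log2 of -0.45 (-0.68 in WT and -0.19 in KO). Their summed level was 73.3 to 77.6 CPM in WT DOX against 83.4 to 114 CPM in WT vehicle, and 82.1 to 87 CPM in KO DOX against 86.7 to 94.8 CPM in KO vehicle. Relative to its mean over the 12 libraries, the list had a log2 level of 0.83 in WT vehicle 2 and of 0.19 or less in every other library. Without WT vehicle 2, Mki67 had a log2 of -1.58 (adjusted p = 0.0813) and Top2a of -1.63 (adjusted p = 0.0857). The fit with 1 mean per group called 0 of the 26 genes higher and 3 lower, beside 2.58% and 2.6% of all genes. That count of 3 was 4 without WT DOX 21, 5 without WT vehicle 1 and 1 or 2 without any other library.

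The promoters of Mki67 and Top2a are shown because these had the most negative log2 fold changes of the cell cycle list. Both lie on the minus strand, Mki67 at chr7:135716380-135716629 and Top2a at chr11:99024190-99024439 (GRCm38.p6, 250 bases before the RefSeq start), and capitals mark CCAAT boxes (CCAAT, or ATTGG on the reverse strand), which NF-Y binds, and cell cycle homology region letters (CHR; TTTGAA, or TTCAAA on the reverse strand), the element through which the DREAM complex represses mitotic genes.
Mki67: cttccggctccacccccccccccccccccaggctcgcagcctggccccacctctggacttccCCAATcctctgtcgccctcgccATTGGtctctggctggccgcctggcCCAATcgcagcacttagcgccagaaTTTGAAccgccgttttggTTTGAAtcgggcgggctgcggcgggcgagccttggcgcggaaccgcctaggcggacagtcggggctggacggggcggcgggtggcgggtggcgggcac
Top2a: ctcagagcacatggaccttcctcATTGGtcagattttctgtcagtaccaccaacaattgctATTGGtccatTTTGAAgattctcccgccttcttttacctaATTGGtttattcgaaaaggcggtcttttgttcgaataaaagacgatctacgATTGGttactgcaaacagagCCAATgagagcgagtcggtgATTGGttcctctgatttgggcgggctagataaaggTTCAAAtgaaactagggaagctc
The CHR letters begin 116 and 98 bases before the start in Mki67 and 179 and 23 bases before it in Top2a. In the wider window that includes 50 bases after the start, TTTGAA on either strand was found in 18.1% of all promoters and in 5 of the 30 called genes with a promoter, CCAAT in 37.9% and in 14, and both together in 7.12% and in 1, Mki67.

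Both chains of a chaperone from the MHC class II pathway of antigen presentation were lower in DOX hearts. Class II molecules display peptides to T cells and are found on dendritic cells, B cells and activated macrophages. H2-DMa and H2-DMb1 encode the chains of the H2-DM chaperone that loads the peptides. H2-DMa was at 1.98, 0.947 and 0.749 CPM in WT DOX and 1.34, 1.02 and 1.39 CPM in KO DOX, against 3.7, 6.01 and 4.29 CPM in WT vehicle and 2.01, 2.45 and 3.03 CPM in KO vehicle. DOX lay below vehicle throughout, WT DOX 21 narrowly, and H2-DMa fell by 1.48 on the log2 scale (SE 0.27, adjusted p = 0.0471). H2-DMb1 was at 1.4, 0.473 and 0.576 CPM in WT DOX and 0.63, 0.403 and 0.617 CPM in KO DOX, against 1.96, 4.18 and 2.54 CPM in WT vehicle and 1.37, 1.47 and 2.01 CPM in KO vehicle. WT DOX 21 was the exception that reached into the range of the KO vehicle hearts, and H2-DMb1 fell by 1.70 on the log2 scale (SE 0.29, adjusted p = 0.0471). H2-DMa overlaps other loci, Brd2 among them, and H2-DMb1 has a near-identical neighbour, H2-DMb2, so counts of both are uncertain.

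The presenting chains had lower values in both genotypes too, with more spread between hearts. H2-Ab1 stood at 14, 1.57 and 1.18 CPM in WT DOX and 8.04, 4.98 and 7.32 CPM in KO DOX, against 30.1, 70.2 and 37.1 CPM in WT vehicle and 16, 13.9 and 16.8 CPM in KO vehicle. Its log2 of -2.13 (SE 0.56) had an adjusted p of 0.0945 in the additive fit. All 8 class II genes tested had negative effects in both genotypes, with a median log2 of -1.92 (-2.80 in WT and -1.08 in KO), and 2 of 8 were called. In the fit with 1 mean per group 7 of the 8 class II genes fell, beside 2.6% of all genes, H2-Ab1 with an adjusted p of 0.0391 and Cd74, the invariant chain, by 1.99 on the log2 scale (SE 0.47, adjusted p = 0.0411). This count was 8 without WT DOX 21, 7 without WT vehicle 1 and between 0 and 2 without any other library, and 0 without WT DOX 22, WT vehicle 3, KO DOX 19 or KO vehicle veh_3395. Summed class II transcripts came to 9.79 to 107 CPM in WT DOX against 209 to 439 CPM in WT vehicle, and 35.6 to 62 CPM in KO DOX against 104 to 125 CPM in KO vehicle. The sum of 22 macrophage and monocyte markers overlapped between treatments, at 376 to 452 CPM in WT DOX against 299 to 637 CPM in WT vehicle and 241 to 463 CPM in KO DOX against 367 to 457 CPM in KO vehicle, and 0 of the 22 was without counts in all libraries. Of the 19 tested, 0 were called, and 9 had a negative and 1 a positive effect in both genotypes (median log2 -0.284). Ccr2, a chemokine receptor of recruited monocytes, had a log2 of -1.06 (SE 0.20, adjusted p = 0.0524). Chil3, of the same list, went the other way, with a log2 of 3.35 (SE 0.97, adjusted p = 0.101), at 6 in WT and 0.70 in KO. The fit with 1 mean per group called 1 of the list higher and 1 lower, beside 2.58% and 2.6% of all genes. The part that cell numbers play in these values was not tested.

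Of 21 iron handling and ferroptosis genes tested, 1 was called, Cp, and it was higher in DOX hearts. Cp encodes ceruloplasmin, a copper ferroxidase that lets iron leave cells. It was at 149, 209 and 165 CPM in WT DOX and 123, 181 and 125 CPM in KO DOX, against 95.3, 68.1 and 77.5 CPM in WT vehicle and 106, 98.1 and 84.1 CPM in KO vehicle. The 2 treatments did not overlap, and Cp rose by a log2 of 0.84 (SE 0.15, adjusted p = 0.0471). Scara5, a scavenger receptor that takes up ferritin and is outside that list, was at 29.3 to 41.1 CPM in DOX hearts and 20.7 to 30 CPM in vehicle hearts. It rose by a log2 of 0.44 (SE 0.08, adjusted p = 0.0496), more in KO (0.53) than in WT (0.35), a difference with an adjusted p of 0.58. Ephx1, the microsomal epoxide hydrolase, was at 55.1 to 84.1 CPM in DOX hearts and 30.6 to 47.4 CPM in vehicle hearts. It rose by a log2 of 0.76 (SE 0.13, adjusted p = 0.0471), at 1.10 in WT and 0.42 in KO, and this was the called gene nearest to a difference between genotypes (adjusted p = 0.162). Ephx1 is in no list, and 0 of 15 anthracycline metabolism and efflux genes and 0 of 33 NRF2 and antioxidant defence genes were called, beside 0.237% of all genes. The fit with 1 mean per group called 0 of the 15 higher and 1 lower, and 1 of the 33 higher and 2 lower, beside 2.58% and 2.6% of all genes. Without WT DOX 21 these counts were 2 and 2, and 12 and 2. Without WT vehicle 1 they were 1 and 2, and 1 and 3. Any other left-out library gave 0 of the 15 and at most 1 of the 33 in each direction. In 4 of the 21 iron genes (Cp, Aco1, Ncoa4 and Lpcat3) DOX was above vehicle without overlap in both genotypes and in 0 it was below, beside 3.06% and 2.45% of all genes.

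Hk1 was the 1 called gene of 32 glycolysis and insulin signalling genes tested, and 0 of 30 fatty acid oxidation genes and PPAR targets were called. Hk1, the hexokinase that prevails in fetal heart, was at 216, 250 and 286 CPM in WT DOX and 256, 259 and 266 CPM in KO DOX, against 175, 139 and 159 CPM in WT vehicle and 208, 185 and 190 CPM in KO vehicle. Every DOX heart was above every vehicle heart, and Hk1 rose by a log2 of 0.54 (SE 0.09, adjusted p = 0.043). Hk2, the insulin-responsive muscle form, had a log2 of -0.16 (SE 0.10, adjusted p = 0.338). Ces1d and Nme4, enzyme genes outside these lists, were lower in DOX hearts. Ces1d, a carboxylesterase with triacylglycerol hydrolase activity, was at 92.7, 120 and 98 CPM in WT DOX and 103, 111 and 106 CPM in KO DOX, against 153, 160 and 165 CPM in WT vehicle and 143, 145 and 182 CPM in KO vehicle. It fell by 0.59 on the log2 scale (SE 0.08, adjusted p = 0.0265), with close values in WT (-0.62) and KO (-0.56). Its cluster holds near-identical genes, of which only Ces1e was also tested (log2 0.03, adjusted p = 0.967), so its counts are uncertain. Nme4, a mitochondrial nucleoside diphosphate kinase, was at 2.04 to 2.81 CPM in DOX hearts and 3.47 to 4.28 CPM in vehicle hearts, and fell by 0.64 on the log2 scale (SE 0.12, adjusted p = 0.0471).

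No nuclear-encoded subunit of the respiratory chain was called in the additive fit. Of 37 complex I subunits 34 had a negative and 1 a positive effect in both genotypes (median log2 -0.37, at -0.62 in WT and -0.10 in KO), and of 42 subunits of complexes II to V 38 had a negative and 1 a positive effect (median -0.33, at -0.55 and -0.11). Over all 14757 genes, 4426 had a negative and 4673 a positive effect in both genotypes. In the fit with 1 mean per group 12 complex I subunits and 11 of the others fell, beside 2.6% of all genes. Among these was Cox7a1, a muscle subunit of cytochrome c oxidase, which fell by 1.09 on the log2 scale (SE 0.20, adjusted p = 0.0254). Those counts were at most 1 and 4 when any library other than WT vehicle 1 or WT DOX 21 was left out, and 31 and 30 without WT vehicle 1, and 27 and 28 without WT DOX 21. Relative to its mean over the 12 libraries, the complex I list had a log2 level of 0.76 in WT vehicle 2, the library with the lowest share of mitochondrially encoded counts, and of 0.36 or less elsewhere.

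Prkar1a and Popdc2, whose products bind cAMP, and the ion channel gene Kcnj12 rose by small amounts. Prkar1a (chromosome 11, 109649405 to 109669656) encodes RI-alpha, a regulatory subunit of protein kinase A that binds cAMP. It was at 548, 540 and 568 CPM in WT DOX and 456, 536 and 484 CPM in KO DOX, against 441, 388 and 365 CPM in WT vehicle and 385, 342 and 360 CPM in KO vehicle. DOX lay above vehicle in all libraries, and Prkar1a rose by a log2 of 0.46 (SE 0.07, adjusted p = 0.0388), at 0.47 in WT and 0.44 in KO. The other PKA subunit genes tested, Prkar1b, Prkar2a, Prkar2b, Prkaca and Prkacb, had log2 values from -0.04 to 0.48 and adjusted p-values of at least 0.21. Popdc2, a Popeye domain protein of muscle that also binds cAMP, was at 534, 535 and 530 CPM in WT DOX and 544, 543 and 615 CPM in KO DOX, against 405, 396 and 410 CPM in WT vehicle and 470, 430 and 482 CPM in KO vehicle. It rose by a log2 of 0.35 (SE 0.06, adjusted p = 0.0471), the smallest change among the called genes. Its relatives Popdc3 (log2 0.07, adjusted p = 0.716) and Bves (log2 -0.00465, adjusted p = 0.97) did not pass.

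Kcnj12, the Kir2.2 channel of the inward rectifier current that sets the resting potential, was at 19.7, 23.3 and 26.9 CPM in WT DOX and 28.7, 25.7 and 25.7 CPM in KO DOX, against 14.2, 13.2 and 11.6 CPM in WT vehicle and 19.1, 20.3 and 21.5 CPM in KO vehicle. DOX was above vehicle within each genotype, and Kcnj12 rose by a log2 of 0.62 (SE 0.11, adjusted p = 0.0471). Kcnj2, the Kir2.1 channel of the same current, had a log2 of -0.33 (SE 0.16, adjusted p = 0.223). Kcnj12 was the only called gene among 39 calcium handling and ion channel genes tested, whose median log2 was -0.085. Of 33 cyclic nucleotide signalling genes, 0 were called and the median log2 was 0.007. The fit with 1 mean per group called 3 of the 39 higher and 0 lower, and 2 of the 33 higher and 1 lower, beside 2.58% and 2.6% of all genes. When any library other than WT DOX 21 or WT vehicle 1 was left out, the higher counts were at most 2 and 1. Prkar1a and Popdc2 are not members of the cyclic nucleotide list, and both were picked out after their values were seen.

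**Figure D3:**
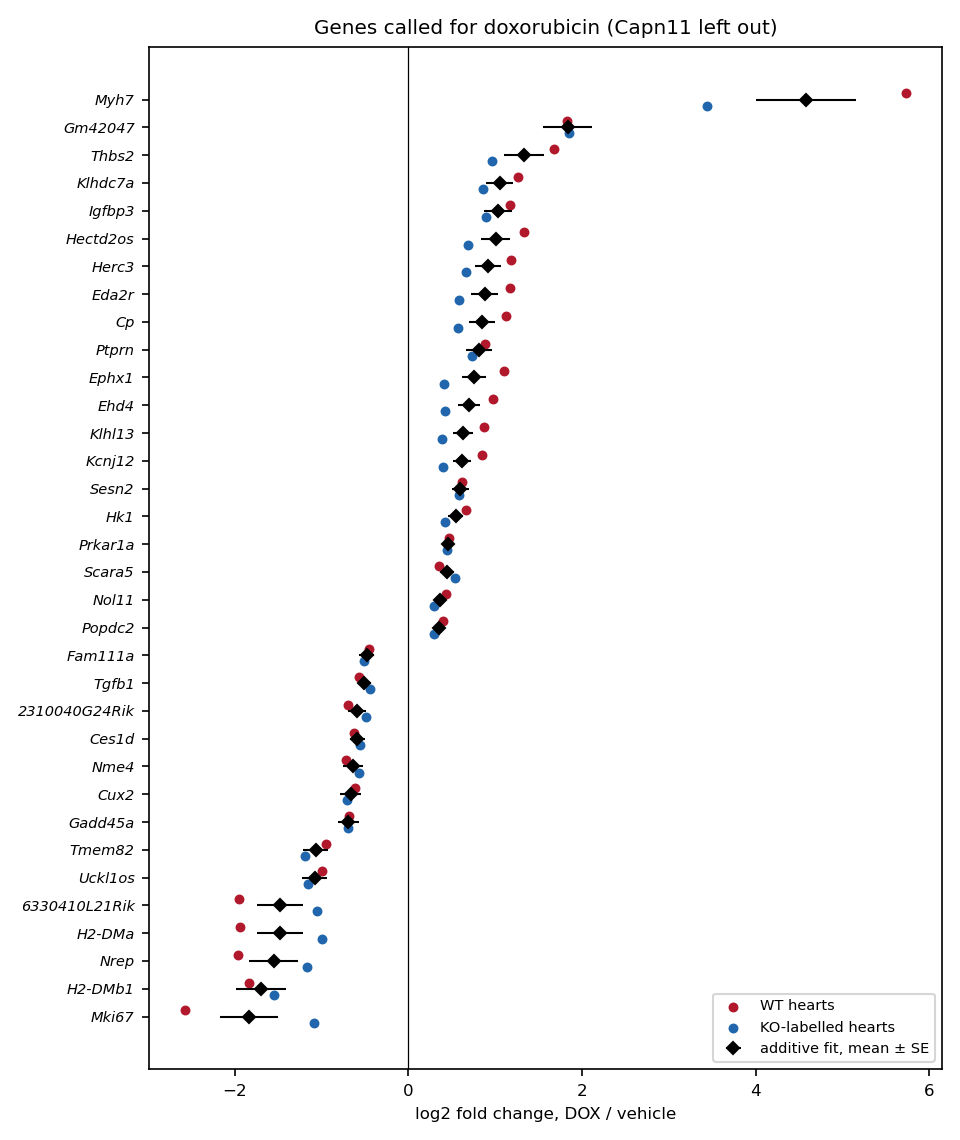
Log2 fold change of DOX over vehicle (x axis) for 34 of the 35 called genes (Capn11 left out); diamonds with bars give the additive fit ± SE, and circles the values in WT and KO-labelled hearts. Myh7 and Mki67 show wide gaps between the genotypes, whereas Prkar1a, Sesn2, Ces1d and Gadd45a have nearly equal values in both.

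The remaining higher genes included parts of ubiquitin ligases and of membrane traffic. Herc3, a HECT-type ubiquitin ligase, was at 50.7 to 76 CPM in DOX hearts and 20.9 to 39.3 CPM in vehicle hearts, and rose by a log2 of 0.92 (SE 0.15, adjusted p = 0.043). Klhl13, a substrate adaptor of cullin 3 ligases, was at 20.9 to 28.9 CPM in DOX hearts and 13.1 to 19.7 CPM in vehicle hearts, and rose by a log2 of 0.63 (SE 0.11, adjusted p = 0.0471). Both kept DOX and vehicle apart in all 12 libraries. Ehd4, an ATPase of endosomal recycling, was at 453 to 726 CPM in DOX hearts and 284 to 429 CPM in vehicle hearts (log2 0.70, SE 0.13, adjusted p = 0.0471), while Ehd1, Ehd2 and Ehd3 had log2 values of -0.16, -0.37 and -0.10 and did not pass. Ptprn, a membrane protein of dense-core secretory vesicles, had its lowest DOX value of 7.1 CPM in WT DOX 22 and its highest vehicle value of 6.7 CPM in WT vehicle 2, and rose by a log2 of 0.81 (SE 0.15, adjusted p = 0.0471). Klhdc7a, a kelch domain gene, rose by a log2 of 1.05 (SE 0.16, adjusted p = 0.0303), at 6.76 to 12.7 CPM in DOX hearts and 2.74 to 6.23 CPM in vehicle hearts. Nol11, which serves early ribosome assembly, had narrow groups of 25 to 27.5 CPM in DOX hearts and 17.7 to 22.7 CPM in vehicle hearts (log2 0.36, SE 0.07, adjusted p = 0.0471).

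Among the remaining lower genes were a transcription factor and a protease. Tmem82, a transmembrane protein gene, was at 20.1, 24.3 and 15.7 CPM in WT DOX and 13.5, 14.3 and 14.7 CPM in KO DOX, against 34.3, 51.1 and 30.8 CPM in WT vehicle and 33.8, 25.7 and 37.3 CPM in KO vehicle. It fell by 1.07 on the log2 scale (SE 0.15, adjusted p = 0.0215), more in KO (-1.19) than in WT (-0.95), with an adjusted p of 0.688 for the difference. Nrep, a small protein gene linked to wound repair and TGF-beta, was at 2.16 to 11.4 CPM in DOX hearts and 12.8 to 23.3 CPM in vehicle hearts, and fell by 1.55 on the log2 scale (SE 0.28, adjusted p = 0.0471). Cux2, a homeobox transcription factor gene, fell by 0.66 on the log2 scale (SE 0.12, adjusted p = 0.0471), at 5.62 to 9.59 CPM in DOX hearts and 10.4 to 14 CPM in vehicle hearts. Fam111a, a nuclear protease that acts at replication forks, fell by 0.48 on the log2 scale (SE 0.08, adjusted p = 0.0471), at 4.83 to 6.36 CPM in DOX hearts and 7.6 to 8.91 CPM in vehicle hearts.

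Noncoding and barely detected genes completed the 35. Gm42047, a long noncoding RNA on chromosome 8 from 121833247 to 121841178, was at 4.71, 3.82 and 7.52 CPM in WT DOX and 7.72, 2.74 and 4.86 CPM in KO DOX, against 1.91, 1.07 and 1.59 CPM in WT vehicle and 0.836, 1.62 and 1.79 CPM in KO vehicle. It rose by a log2 of 1.84 (SE 0.28, adjusted p = 0.0336), with nearly equal effects in WT (1.82) and KO (1.85), and every DOX heart was above every vehicle heart. Hectd2os, an antisense RNA, rose by a log2 of 1.01 (SE 0.17, adjusted p = 0.0471), while Hectd2 on the other strand had a log2 of 0.20 (adjusted p = 0.514). Uckl1os fell by 1.08 (SE 0.15, adjusted p = 0.0215), 6330410L21Rik by 1.48 (SE 0.27, adjusted p = 0.0471) and 2310040G24Rik by 0.59 on the log2 scale (SE 0.11, adjusted p = 0.0471). The first 2 of these overlap Uckl1 and Egf on the opposite strand, whose log2 values were -0.19 (adjusted p = 0.101) and 0.00315 (adjusted p = 0.991). Capn11, a calpain known mainly from testis in the mouse, held 147 counts summed over the WT DOX libraries and 6 over the KO DOX libraries, against 1 over the WT vehicle and 0 over the KO vehicle libraries. With 0 in KO DOX 19, Capn11 was the called gene whose treatments overlapped within KO, and its call (adjusted p = 0.0182) rests on WT hearts.

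**Figure D4:**
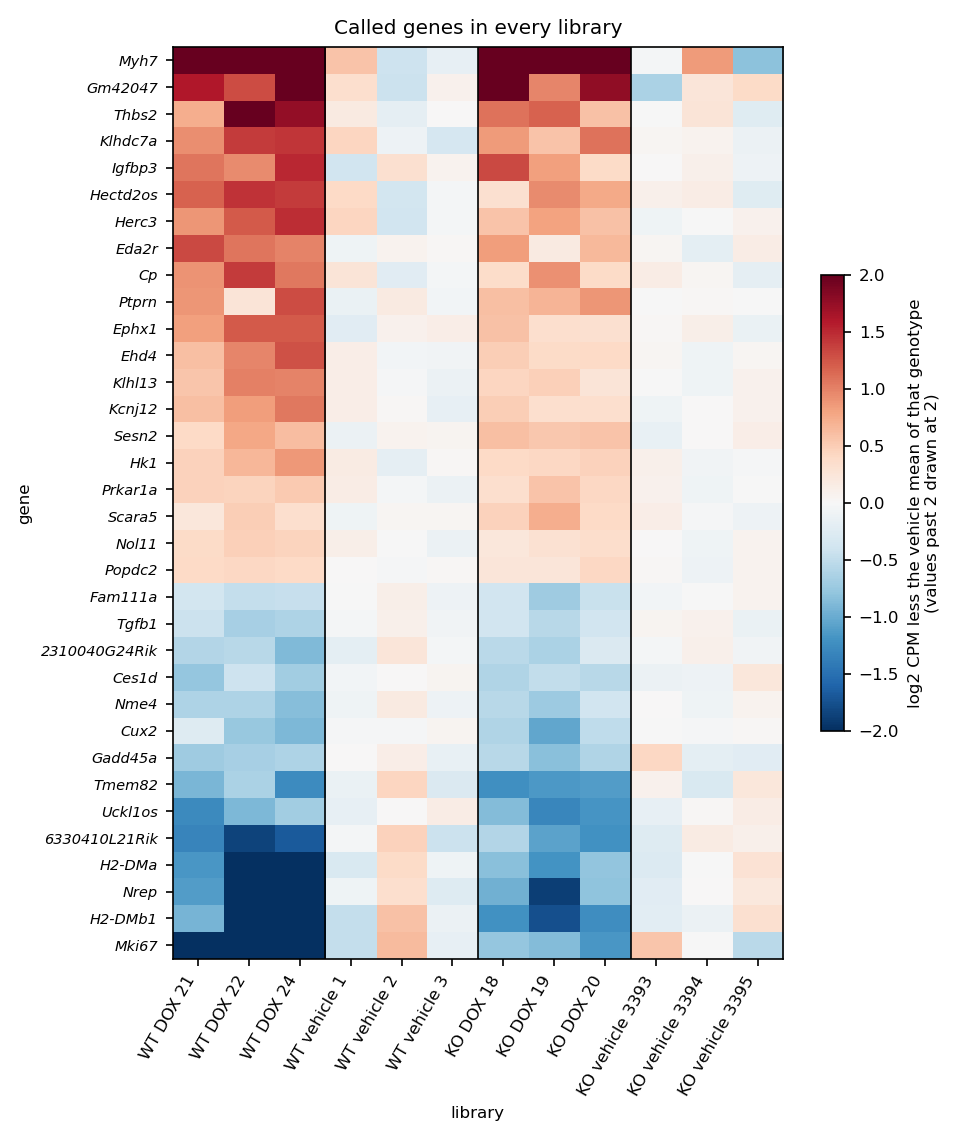
Log2 CPM of 34 called genes, without Capn11 (y axis) in each of the 12 libraries (x axis), less the vehicle mean of that genotype, so that red is higher and blue lower. WT DOX 21 is paler than WT DOX 22 and 24 in Thbs2, Nrep and both H2-DM genes, and the effect is larger in WT in 28 of all 35 called genes.

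The effect was larger in WT in 28 of 35 genes, and the median ratio of the KO to the WT log2 fold change was 0.677. Neither value was worked out over all genes tested, so they are not shown to be particular to the called genes. The difference between genotypes passed its own test in 0 of the 35 and in 31 of all genes tested (0.21%). The additive fit leaves such a difference in its residual spread, which works against calling genes with a large one. With so small a share over all genes, the 0 of 35 does not show equal effects. Within a single genotype, 2743 genes (18.6%) were called in WT, all 35 included, and 2 (0.0136%) in KO, neither of them among the 35. Over all genes the DOX effects had the same sign in both genotypes in 9099 (61.7%). Among single hearts, WT DOX 21 was the DOX heart nearest to vehicle in 22 of the 35 genes when each library was set within its own genotype, and WT vehicle 1 was the vehicle heart nearest to DOX in 20. In KO these were DOX 18, in 15 genes, and vehicle veh_3393, in 13. WT DOX 21 lacks the added 1 that the titles of WT DOX 22 and 24 carry. WT vehicle 1 carries it, while WT vehicle 2 and 3 do not.

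Some lists had medians of opposite sign in the 2 genotypes, so that their averages describe neither. Neutrophil markers had a median log2 of 3.68 in WT and -0.82 in KO, with summed levels of 14.5 to 109 CPM in WT DOX against 6.41 to 7.58 CPM in WT vehicle, and of 12 to 19 CPM in KO DOX against 14.2 to 20 CPM in KO vehicle. Glucocorticoid targets had medians of 0.621 in WT and -0.315 in KO, and adipocyte markers of -2.075 in WT and 1.006 in KO. The erythroid list differed from these, with negative medians in both genotypes (-9.778 in WT and -0.532 in KO) and negative effects in both for all 6 genes tested. Erythroid transcripts summed to 0.403 to 0.611 CPM in WT DOX against 51.4 to 173 CPM in WT vehicle. In KO the sums were 0.945, 216 and 61.9 CPM with DOX against 47.1 to 256 CPM with vehicle, so that KO DOX 18 alone among the KO hearts was under 1 CPM. Of 26 endothelial markers, 4 fell in the fit with 1 mean per group, beside 2.6% of all genes, and 0 kept DOX and vehicle apart in both genotypes. That count of 4 was 8 without WT DOX 21, 7 without WT vehicle 1 and 0 without any other library.

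**Figure D5:**
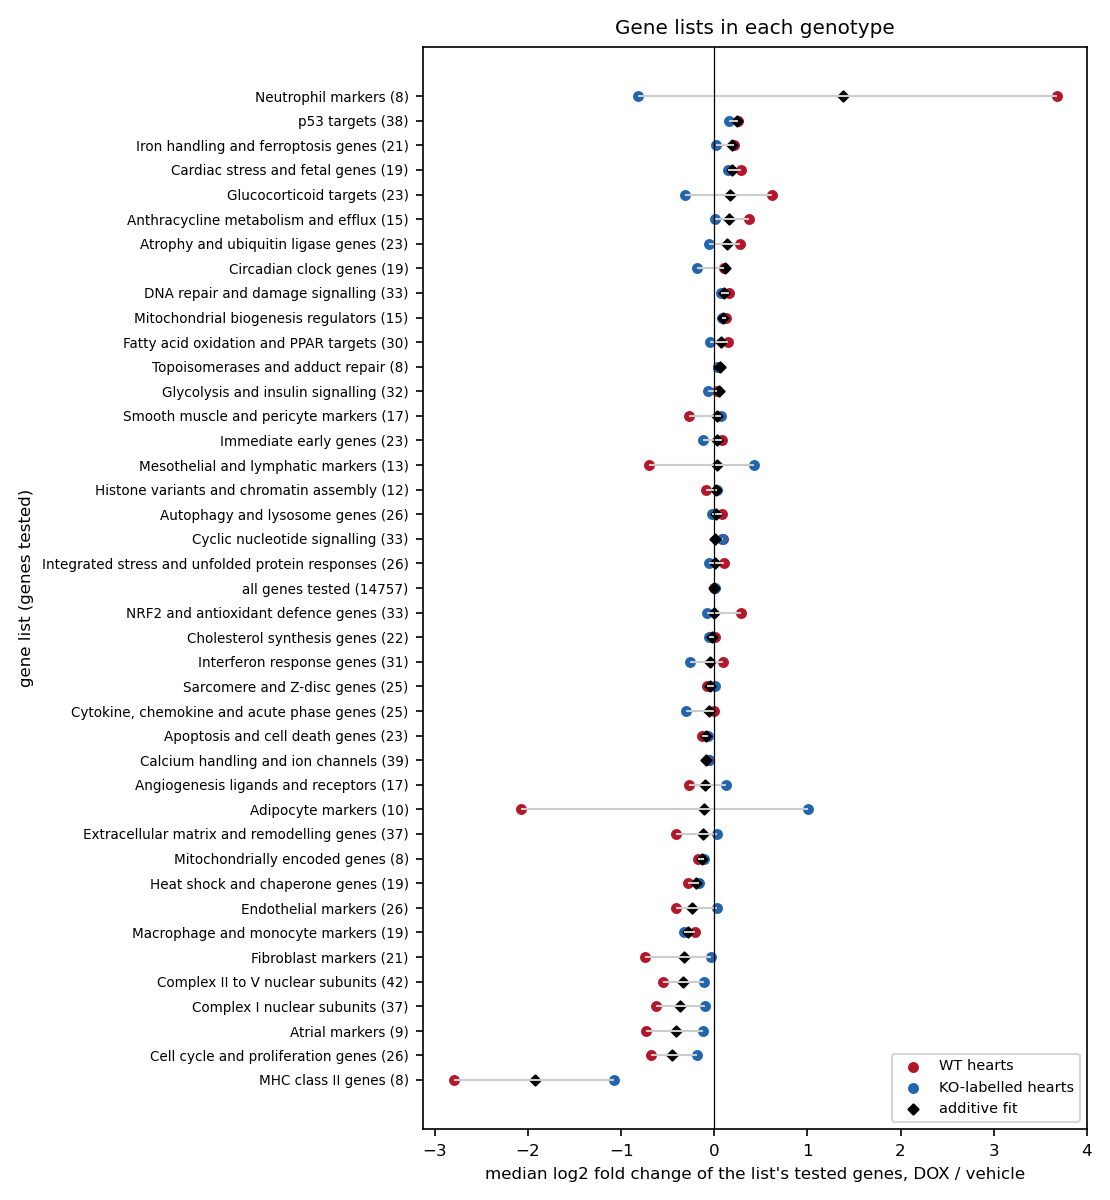
Median log2 fold change of DOX over vehicle (x axis) for each gene list with at least 8 genes tested (y axis, number tested in brackets), in WT hearts, in KO-labelled hearts and in the additive fit. MHC class II genes lie lowest in both genotypes, and neutrophil markers lie at 3.68 in WT and -0.82 in KO.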

How the data were processed

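RNA-seq libraries of 12 mouse hearts were made with a stranded mRNA kit, per the labels' protocols. Each library has its own file of read counts over 55453 gene symbols, deposited by the authors without normalisation. The submitters' processing notes name featureCounts from Subread 1.6.4, the aligner STAR 2.7.0f and the read trimmer fastp 0.20.0. Build, annotation and strand setting were not given in the sources used here. Positions come from GENCODE M21 (GRCm38), in which 98.3% of symbols were found by name, and promoters from RefSeq (GRCm38.p6).

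The counts were taken into edgeR 4.0.16 (R 4.3.3) unchanged. The filter filterByExpr, set by group, kept 14757 genes, and TMM gave the scaling. A model with genotype and treatment as additive terms was fitted to all 12 libraries, which left 9 residual degrees of freedom, and treatment was tested with the quasi-likelihood F test and Benjamini-Hochberg adjustment over all genes tested at a threshold of 0.05. Fold changes are DOX over vehicle. Each SE was derived from the test, as the size of the log2 fold change divided by the square root of its F statistic. A fit with 1 mean per group gave the DOX effect in each genotype, their difference and their average. CPM values use TMM-scaled totals. The biological coefficient of variation was 19%. The tests were tried on simulated counts first. Each library is a separate mouse. No 2 libraries of a group agreed within sampling noise (lowest chi-square per gene 8.3). Motifs were searched on both strands, and overlapping matches were counted.

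The comparison, the 44 gene lists and the naming rule were chosen with earlier results of these data known. The rule took the 12 most raised and 12 most lowered of the called genes that had the same sign, no overlap of treatments in either genotype and an average log2 CPM of 1 or more, leaving out clone-type names. It added up to 4 called members of each list and 10 genes whatever their p (Myh7, Myh6, Nppa, Nppb, Acta1, Ankrd1, Cdkn1a, Top2a, Top2b and Pde10a). Of the 35 called genes it named 27. The other 8 (Capn11, Gm42047, Prkar1a, Scara5, Nol11, Popdc2, 2310040G24Rik and 6330410L21Rik), members of lists that were not called, and relatives of called genes were named after their values were seen. Called genes of opposite sign in the 2 genotypes, which the rule also asked for, numbered 0. Alternatives changed the scaling (size factors of DESeq2, or library totals only), the filter (none, or 1 CPM in 3 libraries), the tool (DESeq2 1.42.0, or voom with quality weights in limma 3.58.1) or the design (1 mean per group, or the 1 in the titles as a term), or left out each library or 2 pairs of libraries. Leaving out libraries in the fit with 1 mean per group was added after seeing the data.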

Additional observations from a re-analysis of the deposited data

Results flagged for a closer look

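Among the values of the 35 called genes in the 6 DOX or the 6 vehicle libraries, 70 sets in all, 5 had 1 library far from the other 5 by Dixon's criterion, which chance alone meets in about 1 in 20 sets. Gadd45a was at 17.4 CPM in KO vehicle veh_3393, against 9.13 to 11.4 CPM in the other vehicle libraries. Popdc2 was at 615 CPM in KO DOX 20, against 530 to 544 CPM in the other DOX libraries. H2-DMb1 was at 1.4 CPM in WT DOX 21, against 0.403 to 0.63 CPM in the other DOX libraries. Fam111a was at 4.83 CPM in KO DOX 19, against 5.78 to 6.36 CPM in the other DOX libraries. Capn11 was at 0.0445 CPM, a single count, in WT vehicle 1, against 0 in the other vehicle libraries.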

How the results depend on the processing

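The direction of each of the 35 called genes held in the 12 fits without 1 library and in the 10 other alternatives, while the number of calls did not hold. These fits reuse the libraries that made the calls, so a kept direction is not independent evidence. Against 35 genes called (21 higher, 14 lower, 34 of them apart the same way in both genotypes), no filter on low counts gave 1141 (548, 593 and 417), DESeq2 gave 1226 (620, 606 and 583), limma-voom gave 78 (41, 37 and 69) and the average in the fit with 1 mean per group gave 763 (380, 383 and 416). The title covariate gave 0 (0, 0 and 0). Without KO vehicle veh_3394 and KO DOX 18 there were 7 calls (3, 4 and 6), and without WT vehicle 2 and WT DOX 21 there were 11 (5, 6 and 11). No TMM scaling gave 4 lower genes of 26 called. DESeq2's size factors (30 called) and a filter of 1 CPM in 3 libraries (48 called) stayed within 1.5 times of the count. Leaving out 1 library gave between 0 and 51 calls (0 to 29 higher, 0 to 22 lower, 0 to 50 apart the same way), and where edgeR called 0, between 2859 and 3928 genes had an unadjusted p under 0.05. All 35 genes were also called with 1 mean per group, 33 with DESeq2, which gave Capn11 and 6330410L21Rik no adjusted p, and 33 with limma-voom, which did not call Capn11 and Mki67. The additive fit leaves any difference of the DOX effect between genotypes in the residual spread by its construction, and the fit with 1 mean per group does not; the cause of the other changes in count was not tested. The averaged effect called between 27 and 2707 genes without 1 library, 16 without KO vehicle veh_3394 and KO DOX 18, and 2246 without WT vehicle 2 and WT DOX 21. Pde10a changed sign, to 0.0781 without WT vehicle 1 (lowest without 1 library -0.242, without WT vehicle 2) and to 0.0124 without KO vehicle veh_3394 and KO DOX 18, with a lowest value of -0.301 without WT vehicle 2 and WT DOX 21. Cdkn1a, Nppb, Ankrd1, Acta1, Top2a and Myh6 passed in some alternatives, with adjusted p-values down to 3.86e-05, 0.000877, 0.00269, 0.000623, 0.000133 and 0.0472. No paired analysis was possible because the titles give each group its own mouse numbers. Depth limits the low genes. Capn11, Mki67, Top2a and both H2-DM genes lay under 10 CPM in every library. So did Eda2r, Sesn2, Nme4, Fam111a, Gm42047, Uckl1os and 6330410L21Rik.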

Other observations

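Several genes outside the called set kept DOX and vehicle libraries apart the same way in both genotypes, or passed in the fit with 1 mean per group, and are given as values only, chosen after those values were seen. Among DNA repair genes, Mre11a, a subunit of the complex that senses double-strand breaks, had a log2 of 0.34 in the additive fit (SE 0.07, adjusted p = 0.0569) and Prkdc, the catalytic subunit of DNA-dependent protein kinase, of 0.42 (SE 0.11, adjusted p = 0.0951). Myom2, an M-band protein gene, had a log2 of 0.93 (SE 0.18, adjusted p = 0.0569). Hif1a, the hypoxia-responsive transcription factor gene, had 0.71 (SE 0.16, adjusted p = 0.077), and Apln, which encodes the peptide apelin, -1.31 (SE 0.37, adjusted p = 0.0975). Adcy9, an adenylyl cyclase, had 1.02 (SE 0.30, adjusted p = 0.101). The heat shock genes Hsph1 and Dnaja1 had -0.72 (SE 0.17, adjusted p = 0.0838) and -0.62 (SE 0.15, adjusted p = 0.0833).

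Arntl, which encodes the clock activator BMAL1, was at 4.02, 8.27 and 3.12 CPM in KO DOX, against 0.95, 1.06 and 1.92 CPM in KO vehicle, and at 8.09, 15.7 and 9.7 CPM in WT DOX, against 13.1, 13 and 8.57 CPM in WT vehicle. Its additive log2 was 0.82 (SE 0.39, adjusted p = 0.209), at -0.06 in WT and 1.98 in KO, with an adjusted p of 0.141 for the difference. Its partner Clock had a log2 of 0.42 (SE 0.08, adjusted p = 0.0549), at 0.29 in WT and 0.55 in KO. The labels do not give times of tissue collection, and the part they play in these values was not tested.

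Promoters of called genes held the p53 decamer in 3 of 30, in Klhdc7a, Prkar1a and Gadd45a, beside 8.37% of all 27025 promoters. The antioxidant response core TGACNNNGC was found in 8 of 30 beside 12.5%, the glucocorticoid receptor hexamer TGTTCT in 6 of 30 beside 19%, and the E-box CACGTG in 2 of 30 beside 7.24%, each within 250 bases before to 50 after the start. These are letter matches on either strand and not measured binding.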
